A study of Bos indicus and Bos taurus with 17 samples.

Results

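Genes of mitochondrial fatty acid oxidation and ketone body metabolism were followed through lactation in epithelial cells isolated from the milk of Kashmiri and Jersey cattle. The 10 genes were chosen by name for their function, and all were found, each as 1 entry of its own, among 21631 distinct gene names. CPT1A and CPT2 belong to the carnitine shuttle, and ACADVL, ACADM, HADHA and HADHB to the beta-oxidation spiral. ACAT1, BDH1 and OXCT1 belong to the making and use of ketone bodies, and PDK4 to the control of pyruvate dehydrogenase. The 6 groups were the breeds at 3 stages, which were 15 (D15), 90 (D90) and 250 (D250) days of milking. The labels name 17 samples, 2 of them Jersey at D90 and 3 in each of the remaining groups. By the labels 11 came from lactation 2 and 6 from lactation 3, and the Kashmiri D90 and Jersey D250 groups held lactation 2 only, so that lactation number was not balanced over the groups. By the methods of the study, 3 cows of each breed were milked at all 3 stages, so the groups of a breed share animals and are not independent. The labels give lactation numbers that differ between the stages. The methods give all cows the same lactation number and count more libraries than the labels. Lactation number and the number of libraries behind the Jersey D90 value are thus uncertain. Cells were captured from milk with beads carrying an antibody against cytokeratin 18, and the labels name no treatment. In both breeds D15 was sampled in March, D90 in July and D250 in December, so stage and month cannot be told apart. Levels are the authors' FPKM, a fragment count scaled by transcript length and library size, with 1 value for each group, so that no spread between cows and no test between groups can be given. The number of fragments behind each value is unknown. Where 3 values follow each other for a breed below, they are D15, D90 and D250 in that order.

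Long-chain fatty acids enter mitochondria as carnitine esters made by CPT1 in the outer membrane and returned to coenzyme A by CPT2 in the inner membrane. Each round of beta-oxidation then removes a pair of carbons as acetyl-CoA through an acyl-CoA dehydrogenase, a hydratase, a hydroxyacyl-CoA dehydrogenase and a thiolase. Ketone bodies carry acetyl units between tissues. In ruminants, 3-hydroxybutyrate from the rumen wall and the liver is taken up by the udder, where it serves as a fuel and as a primer for new milk fatty acids, and early lactation is the time when blood ketone levels tend to be highest.

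Markers of the captured cell type were present in every group, but so were those of leukocytes. The 10 epithelial markers found besides LALBA summed to 5853, 712 and 2600 FPKM in Kashmiri, and to 2685, 98.2 and 1393 FPKM in Jersey cattle. LALBA, a main milk protein gene, was listed at 0 at D15 in both breeds, which can be a failed estimate and is not read as absence, and with it the epithelial sum was 5853, 13645 and 15631 FPKM in Kashmiri and 2685, 395 and 6533 FPKM in Jersey cattle. KRT18 itself was lowest at 1.59 FPKM in Jersey at D90 and highest at 51.3 FPKM in Kashmiri at D15. The 9 neutrophil markers found, of 12 listed, summed to 207, 526 and 653 FPKM in Kashmiri and to 5158, 6081 and 14609 FPKM in Jersey cattle. The 11 macrophage and monocyte markers summed to 121, 570 and 631 FPKM in Kashmiri and to 1071, 2416 and 2314 FPKM in Jersey cattle, and the 10 T and NK cell markers to 419, 1621 and 369 FPKM in Kashmiri and to 301, 180.1 and 98.7 FPKM in Jersey cattle. No found neutrophil, macrophage, T or NK cell marker was at 0 in any group. B cell markers reached 78.0 FPKM at most in sum (Kashmiri, D90), myoepithelial markers 22.0 FPKM (Jersey, D15) and red blood cell markers 0.939 FPKM (Kashmiri, D90). In such bulk samples, fewer cells of a type and less RNA per cell cannot be told apart.

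**Figure D1:**
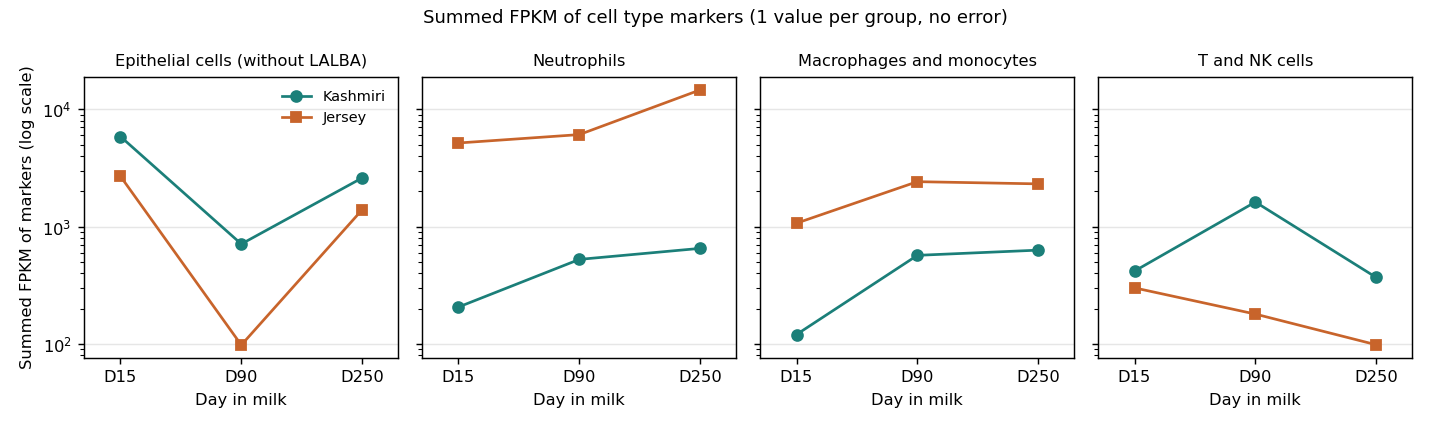
Summed FPKM of the marker genes of 4 cell types, with LALBA left out of the epithelial sum (y axis, log scale) against day in milk (x axis), with circles for Kashmiri and squares for Jersey cattle and 1 value per group without error. Without LALBA the epithelial sum is lowest at D90 in both breeds, at 712 FPKM in Kashmiri and 98.2 FPKM in Jersey cattle, while the neutrophil sum of every Jersey group lies above every Kashmiri group.

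All 10 genes had a level above 0 at all stages in both breeds. FPKM as deposited did not add up to the same total in each group, so orders and ratios were also taken after scaling each group to the total of all entries apart from the milk proteins (the sum), after scaling to the upper quartile, and, for ratios, after centring on the median of all genes. Levels and ratios are as deposited unless a scaling is named. Of the 60 group values, 0 were listed at 0, 1 was under 1 FPKM and 36 were at 10 FPKM or more. The 10 genes together had a summed level of 239.6, 182 and 232 FPKM in Kashmiri, and of 305, 293 and 279 FPKM in Jersey cattle. ACADVL had the highest FPKM of the 10 in 5 of the 6 groups and held from 32.6% to 48.3% of their sum there. At D15 in Kashmiri cattle, BDH1 took that place with 29.9%.

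**Figure D2:**
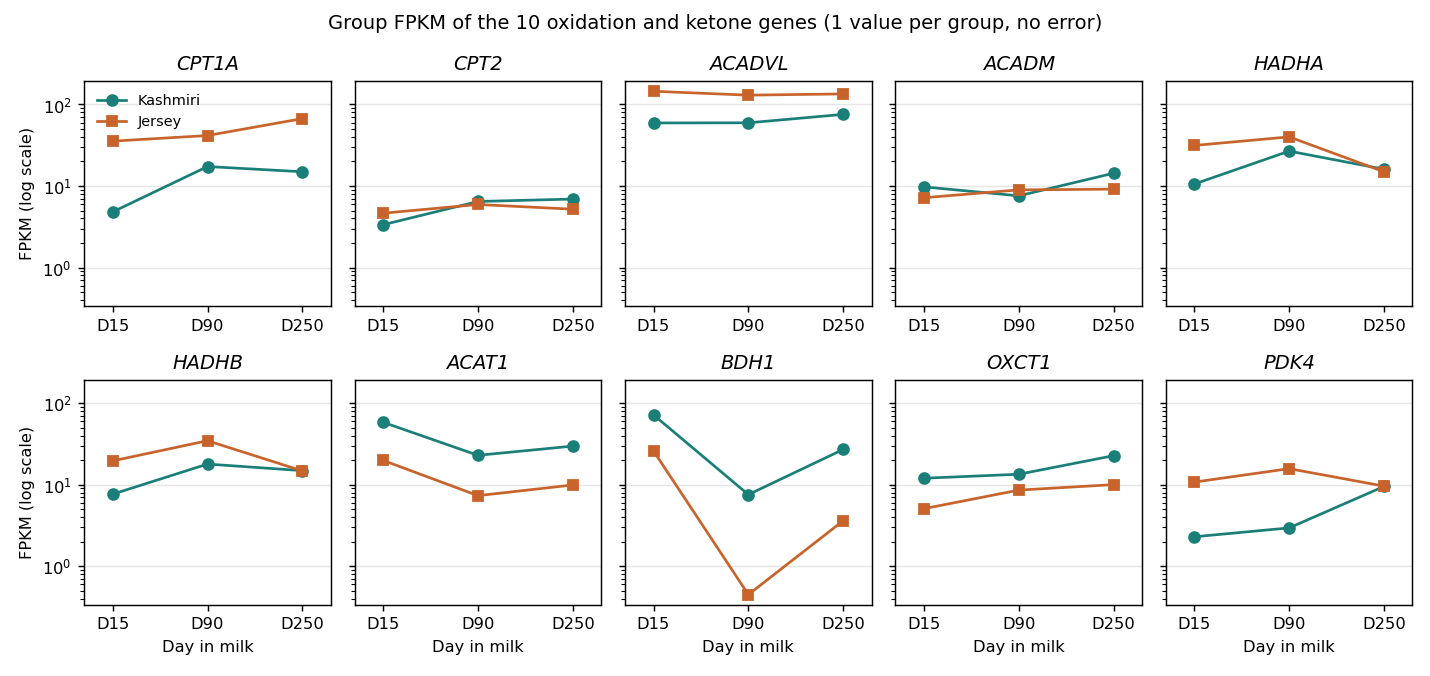
FPKM of each of the 10 genes (y axis, log scale shared by all panels) against day in milk (x axis), with circles for Kashmiri and squares for Jersey cattle and 1 value per group without error. BDH1 covers the widest range, from 0.448 to 71.7 FPKM, and ACADM the narrowest by fold, from 7.18 to 14.3 FPKM.

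CPT1A makes the acyl-carnitine that crosses into the mitochondrion and is the rate-limiting, malonyl-CoA-sensitive step of the pathway. It had 4.81, 17.3 and 14.9 FPKM in Kashmiri and 35.5, 41.6 and 67.1 FPKM in Jersey cattle. All 3 Jersey values lay above all 3 Kashmiri values, and the lowest of the 6 was Kashmiri at D15. CPT2, which rebuilds the acyl-CoA inside, had 3.35, 6.45 and 6.92 FPKM in Kashmiri and 4.63, 5.93 and 5.19 FPKM in Jersey cattle. Its highest value was 2.07-fold its lowest, while for CPT1A the same fold was 14.0.

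ACADVL, the dehydrogenase of very long acyl chains at the inner membrane, had 59.3, 59.6 and 75.6 FPKM in Kashmiri and 145, 130.1 and 135 FPKM in Jersey cattle. It was higher in every Jersey than in every Kashmiri group under each scaling, and its log2 ratios between stages lay from -0.16 to 0.34, but with the sum Kashmiri D250 over D15 was 1.29 and D250 over D90 was 0.98. ACADM, which acts on medium chains, had 9.75, 7.57 and 14.3 FPKM in Kashmiri and 7.18, 8.96 and 9.15 FPKM in Jersey cattle. The breeds overlapped for ACADM, and on the log2(FPKM + 1) scale no ratio between any of the compared groups reached 2-fold for ACADM or CPT2 as deposited. With the sum some did, the largest being 1.67 for CPT2 (Kashmiri D250 over D15) and 1.45 for ACADM (Kashmiri D250 over D90). With the upper quartile CPT2 had 1.10 for Kashmiri D250 over D15 and ACADM -1.06 for Jersey over Kashmiri at D250.

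HADHA and HADHB encode the alpha and beta subunits of the trifunctional protein, which carries out the last 3 steps of the spiral on long chains. HADHA had 10.6, 26.8 and 16.0 FPKM in Kashmiri and 31.4, 40.0 and 14.9 FPKM in Jersey cattle. HADHB had 7.64, 17.9 and 14.8 FPKM in Kashmiri and 19.6, 34.6 and 14.7 FPKM in Jersey cattle. Both were at their highest at D90 within each breed, and the 6 groups came in the same order for both genes, from Jersey at D90 down to Kashmiri at D15. With the sum HADHB was highest at D250 in Kashmiri, where its log2 ratio of D250 over D90 was 0.36 in place of -0.25. The pair lie next to each other in the RefSeq annotation of a Bos indicus assembly, and no other pair of the 10 did.

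BDH1 interconverts acetoacetate and 3-hydroxybutyrate in the mitochondrial matrix and was the most variable of the 10 genes. It had 71.7, 7.54 and 27.0 FPKM in Kashmiri and 25.9, 0.448 and 3.61 FPKM in Jersey cattle. The highest value was 159.99-fold the lowest, which was the only value of the 10 genes under 1 FPKM. In both breeds D15 was highest, D90 lowest and D250 in between, and Kashmiri was higher than Jersey at each stage, with the sum and the upper quartile as well. At D15 in Kashmiri cattle BDH1 lay above 90.5% of the 12342 names with at least 1 FPKM in any group, and at D90 in Jersey cattle above 10.01% of them.

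ACAT1, the mitochondrial acetoacetyl-CoA thiolase that serves both ends of ketone metabolism and isoleucine breakdown, followed the same order of stages. It had 58.2, 22.9 and 29.7 FPKM in Kashmiri and 19.8, 7.33 and 9.90 FPKM in Jersey cattle, and each Kashmiri value was above each Jersey value under each scaling, though with the sum D250 and not D90 was lowest in Jersey. OXCT1, which activates acetoacetate with coenzyme A and so commits ketone bodies to oxidation, had 11.98, 13.4 and 22.7 FPKM in Kashmiri and 5.07, 8.57 and 10.0009 FPKM in Jersey cattle. It too was higher in every Kashmiri than in every Jersey group, but it was at its highest at D250 and lowest at D15 in both breeds. With the sum the breeds overlapped for OXCT1, and with the sum or the upper quartile D90 was its highest stage in Jersey.

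PDK4, a kinase that switches off pyruvate dehydrogenase and is induced in fasting, had 2.29, 2.95 and 9.50 FPKM in Kashmiri and 10.7, 15.7 and 9.58 FPKM in Jersey cattle. The 3 Jersey values lay above the 3 Kashmiri values, with D250 the closest stage, where the log2 ratio of Jersey over Kashmiri was 0.01 as deposited, -0.71 with the sum and -0.44 with the upper quartile, so that the breeds overlapped under both. For none of the 10 genes can neighbours in the order of the 6 groups be told apart by their spread, since no spread is given.

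Ratios between stages and breeds were taken on log2(FPKM + 1), and a gene was counted as higher or lower when it was at least 2-fold apart (a log2 ratio of 1 in size) and had at least 1 FPKM in either group. Fold values printed for a named gene are of plain FPKM, without the added 1. All 10 genes met the minimum in all 9 comparisons. Of the 90 ratios, 34 were past 2-fold, spread over 8 of the 10 genes. BDH1 passed in all 9 comparisons, CPT1A and ACAT1 in 5 each, HADHA and PDK4 in 4 each, HADHB in 3, and OXCT1 and ACADVL in 2 each.

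From D15 to D90 in Kashmiri cattle, CPT1A, HADHA and HADHB were higher and BDH1 and ACAT1 lower. These are 3 and 2 of 10 genes, while over all 11297 genes counted 14.7% were higher and 18.8% lower. The log2 ratio was 1.66 for CPT1A, 1.26 for HADHA, 1.13 for HADHB, -3.09 for BDH1 and -1.31 for ACAT1. BDH1 at D15 was 9.50-fold its D90 value. With the sum, 4 genes were higher and 1 lower. In the same comparison 9 of 11 epithelial markers were at least 2-fold lower, with a median log2 ratio of -1.64. The only higher one, LALBA, was listed at 0 at D15, which can be a failed estimate. Of 9 macrophage and monocyte markers counted, 7 were higher, with a median of 1.95, as were 7 of 10 T and NK cell markers. Of 9 neutrophil markers 5 were higher and 1 lower, and 5 of 5 B cell markers counted were higher. The part of these markers in the result was not tested.

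In Jersey cattle, 2 of 10 genes were lower at D90 than at D15 and 0 were higher, against 16.9% lower and 12.8% higher among all 11080 genes counted. These were again BDH1 (log2 ratio -4.21) and ACAT1 (log2 ratio -1.32). BDH1 at D15 was 57.7-fold its D90 value in plain FPKM, a fold larger than the log2 ratio on FPKM + 1 gives. That D90 value, 0.448 FPKM, was the only value of the 10 genes under 1 FPKM. With the sum 1 gene was higher and 2 lower. CPT1A, HADHA and HADHB had log2 ratios of 0.22, 0.34 and 0.79. Here too 9 of 11 epithelial markers were lower, with a median log2 ratio of -3.74. The only higher one, LALBA, was listed at 0 at D15, which can be a failed estimate. Of 10 T and NK cell markers 5 were lower, and of 10 macrophage and monocyte markers counted 4 were higher and 2 lower. Of 9 neutrophil markers 2 were higher. The part of these markers in the result was not tested.

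From D90 to D250, BDH1 was higher in both breeds, by a log2 ratio of 1.71 (Kashmiri) and 1.67 (Jersey). In plain FPKM the folds were further apart, at 3.58 in Kashmiri and 8.05 in Jersey cattle, where the D90 value was only 0.448 FPKM. In Kashmiri cattle PDK4 (log2 ratio 1.41) was also higher, which makes 2 of 10 genes higher and 0 lower, against 8.95% higher and 8.77% lower among all 11414 genes counted. In Jersey cattle HADHA (log2 ratio -1.37) and HADHB (log2 ratio -1.18) were lower, which makes 1 of 10 higher and 2 lower, against 16.6% higher and 4.22% lower among all 10955 genes counted. With the sum PDK4 was lower as well, giving 1 higher and 3 lower, and in Kashmiri OXCT1 and ACADM were higher as well, giving 4 higher and 0 lower. Epithelial markers were higher at D250 for 6 of 11 genes in Kashmiri and 9 of 11 genes in Jersey cattle. In Jersey cattle 5 of 10 macrophage and monocyte markers counted were lower, and of 9 neutrophil markers 5 were higher and 1 lower. In Kashmiri cattle 9 of 10 T and NK cell markers were lower. The part of these markers in the result was not tested.

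Over the whole interval from D15 to D250, BDH1 was lower in both breeds, by a log2 ratio of -1.38 (Kashmiri) and -2.54 (Jersey). In Kashmiri cattle CPT1A (log2 ratio 1.46) and PDK4 (log2 ratio 1.67) were higher, so that 2 of 10 genes were higher and 1 lower, against 11.2% and 14.5% of all 11487 genes counted. With the sum, 8 genes were higher and 0 lower, and with the upper quartile 5 were higher and 1 lower. In Jersey cattle HADHA (log2 ratio -1.03) was lower besides BDH1, so that 2 of 10 were lower and 0 higher, against 17.9% lower and 24.5% higher among all 11320 genes counted. ACAT1 did not reach the limit in either breed, with log2 ratios of -0.95 in Kashmiri and -0.93 in Jersey, though in Jersey it did under all 3 other scalings, which gave 3 lower and 0 higher, and OXCT1 had ratios of 0.87 in Kashmiri and 0.86 in Jersey. Of the markers counted in Kashmiri, 8 of 10 macrophage and monocyte genes were higher, and 4 of 9 neutrophil genes were higher and 1 lower. Of 11 epithelial genes there, 4 were lower and 2 higher, CDH1 (log2 ratio 1.27) and LALBA, which was listed at 0 at D15. In Jersey 7 of 11 epithelial genes were lower and 1, LALBA, again listed at 0 at D15, was higher. There 7 of 10 T and NK cell and 4 of 5 B cell genes counted were lower. There 6 of 9 neutrophil genes were higher, and of 10 macrophage and monocyte genes counted 3 were higher and 3 lower. The part of these markers in the result was not tested.

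**Figure D3:**
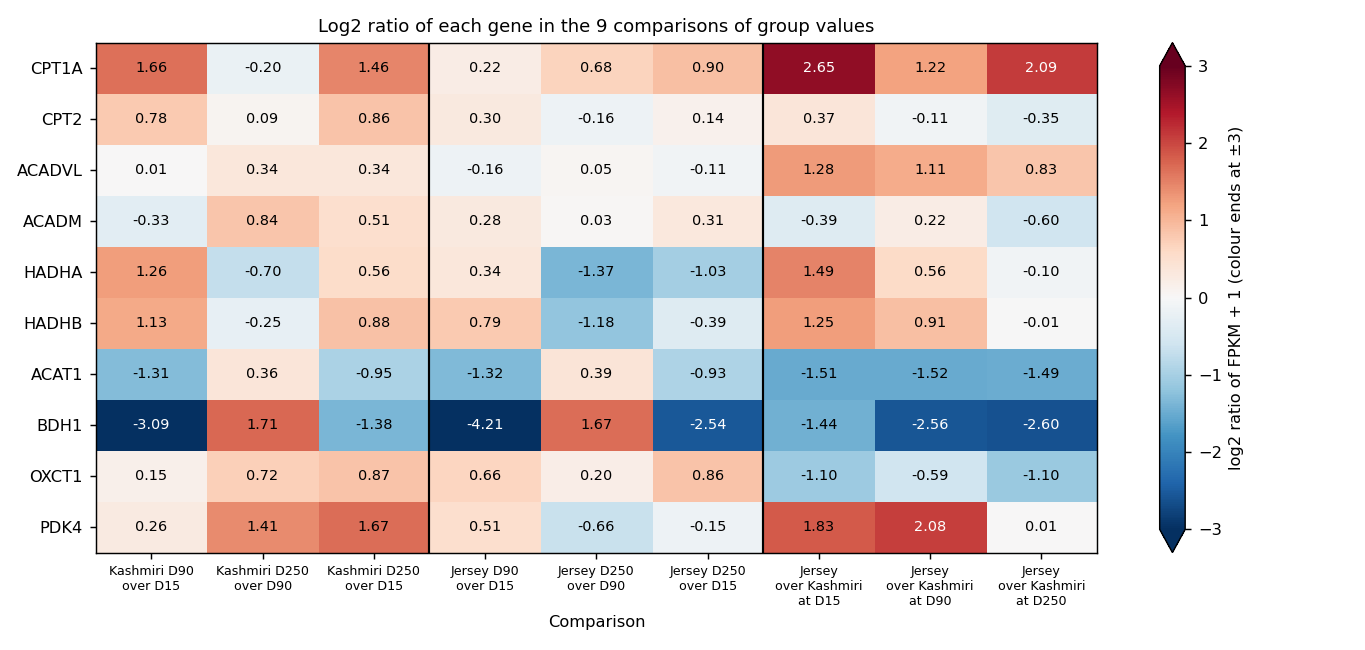
Log2 ratio of FPKM + 1 for each of the 10 genes (rows) in the 9 comparisons (columns), with red for higher and blue for lower in the group named first and the colour ending at a size of 3. BDH1 is the only row past 2-fold in every column, and its lowest value is -4.21 for Jersey D90 over D15.

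Between the breeds at D15, 8 of the 10 genes were at least 2-fold apart. CPT1A (log2 ratio, Jersey over Kashmiri, of 2.65), PDK4 (1.83), HADHA (1.49), ACADVL (1.28) and HADHB (1.25) were higher in Jersey, and ACAT1 (-1.51), BDH1 (-1.44) and OXCT1 (-1.10) were lower. Among all 11202 genes counted, 15.9% were higher and 13% lower in Jersey. OXCT1 was not past the limit with the sum or with centring on the median of all genes, which left 5 higher and 2 lower. CPT2 and ACADM did not pass, with log2 ratios of 0.37 and -0.39. In the same comparison 8 of 9 neutrophil markers and 9 of 10 macrophage and monocyte markers counted were higher in Jersey, with median log2 ratios of 3.73 and 3.43, and their part in the result was not tested.

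At D90 the genes past the limit were CPT1A (log2 ratio 1.22), ACADVL (1.11) and PDK4 (2.08), higher in Jersey, and BDH1 (-2.56) and ACAT1 (-1.52), lower in Jersey. These are 3 and 2 of 10 genes, against 17% higher and 15.9% lower among all 11209 genes counted. With the upper quartile ACADVL was no longer past the limit, which left 2 higher and 2 lower, and with the sum HADHB was higher as well, which gave 4 higher and 2 lower. At this stage 9 of 11 epithelial markers were lower in Jersey, with a median log2 ratio of -2.28, and 8 of 8 neutrophil markers counted were higher, with a median of 3.97. Of 10 macrophage and monocyte markers counted 9 were higher, while 8 of 10 T and NK cell and 4 of 5 B cell markers counted were lower. The part of these markers in the result was not tested.

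At D250, CPT1A alone was higher in Jersey (log2 ratio 2.09), and BDH1 (-2.60), ACAT1 (-1.49) and OXCT1 (-1.10) were lower. These are 1 and 3 of 10 genes, against 22.8% higher and 11.7% lower among all 11642 genes counted. With the sum, 1 gene was higher and 5 lower, and with the upper quartile 1 was higher and 4 lower. The fold of ACAT1, Kashmiri over Jersey, was 2.93, 3.12 and 3.00 at the 3 stages. Its log2 ratio of Jersey over Kashmiri was -1.51, -1.52 and -1.49 as deposited, but -1.10, -1.21 and -2.24 with the sum and -1.62, -1.65 and -1.96 with the upper quartile. HADHA, HADHB and PDK4, which were 2.97-fold, 2.56-fold and 4.69-fold higher in Jersey at D15, had Jersey over Kashmiri folds of 0.930, 0.993 and 1.01 at D250. With the sum their log2 ratios at D250 were -0.84, -0.75 and -0.71, and with the upper quartile -0.57, -0.48 and -0.44. Epithelial markers were lower in Jersey for 9 of 11 genes, T and NK cell markers for 8 of 9 and B cell markers for 4 of 5 counted, and neutrophil markers were higher for 8 of 9 genes. Of 10 macrophage and monocyte markers counted 5 were higher and 2 lower. The part of these markers in the result was not tested.

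The ratio between stages was set side by side in the breeds by subtracting the log2 ratio of Kashmiri from that of Jersey cattle, without a test. For ACAT1 the difference lay between -0.01 and 0.03 in the 3 intervals as deposited, but with the sum it was -0.10, -1.04 and -1.14. From D15 to D90 the difference was -1.44 for CPT1A and -1.12 for BDH1, the only genes past 1 in size. The BDH1 differences depend on the added 1 FPKM, since its Jersey D90 value was 0.448 FPKM. In plain FPKM its log2 ratios from D15 to D90 were -3.25 in Kashmiri and -5.85 in Jersey cattle. For D90 to D250 its difference was -0.04, while the plain log2 ratios were 1.84 and 3.01. From D90 to D250 the difference was -2.07 for PDK4, which was higher at D250 in Kashmiri (log2 ratio 1.41) and had a ratio of -0.66 in Jersey cattle. From D15 to D250 it was -1.82 for PDK4, -1.58 for HADHA, -1.26 for HADHB and -1.17 for BDH1. Over that interval the differences ran from -1.82 to 0.01 as deposited and from -2.17 to -0.34 with the upper quartile. With the sum they ran from -2.82 to -1.13, so that each of the genes followed was past 1 in size. For D90 to D250 they ran from -2.07 to 0.88 as deposited and from -3.10 to -0.21 with the sum. The size of these differences thus depended on the scaling. The sign of the change was opposite in the breeds for 2 genes from D15 to D90, for 3 genes from D90 to D250 and for 4 genes from D15 to D250. With the sum these counts were 1, 7 and 5, with the upper quartile 2, 6 and 4, and with centring 2, 5 and 4. Opposite signs under all 4 scalings were found for ACADM from D15 to D90 and for CPT2 and PDK4 from D90 to D250. The same held for ACADVL, HADHA, HADHB and PDK4 from D15 to D250. For ACADM, CPT2 and ACADVL the ratios of both breeds in these intervals were under 2-fold as deposited.

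The sum of all entries as deposited ran from 533249 (Kashmiri, D250) to 1023150 (Kashmiri, D15). The median log2 ratio of all genes counted from D15 to D250 in Kashmiri cattle was -0.04 as deposited, 0.20 with the upper quartile and 0.77 with the sum, and for Jersey over Kashmiri at D250 it was -0.10, -0.52 and -0.75. The median of all genes as deposited was between -0.13 and 0.15 in the 9 comparisons, and 30 of the 34 ratios past 2-fold were also past it with both rescalings and with centring. None of the 34 changed its sign under these 3 scalings, while 12 of the remaining ratios did under at least 1 of them. Those that lost the limit under a scaling were BDH1 from D15 to D250 and ACAT1 from D15 to D90 in Kashmiri cattle, OXCT1 between breeds at D15 and ACADVL between breeds at D90. The split of all genes into higher and lower moved more. As deposited it was 1661 and 2120 genes from D15 to D90 in Kashmiri, and 2302 and 1486 with the sum. The corresponding split was 1022 and 1001 against 3010 and 330 for D90 to D250, and 1291 and 1662 against 4507 and 341 for D15 to D250, where the upper quartile gave 1969 and 1098. In Jersey it was 1421 and 1876 against 2025 and 1425 for D15 to D90, and 2778 and 2022 against 2309 and 2532 for D15 to D250. For D90 to D250 it was 1823 and 462 as deposited, 1031 and 1256 with the sum, 1297 and 706 with the upper quartile and 1439 and 625 with centring. Between breeds it was 1781 and 1452 against 2348 and 738 at D15, 1905 and 1784 against 2580 and 1342 at D90, and 2651 and 1366 against 1651 and 4553 at D250, where the upper quartile gave 1942 and 3144.

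Ratios of a pair of genes within the same group do not depend on the scaling and show unequal change. HADHA over HADHB, the subunits of 1 complex, stayed between 1.01 and 1.61 in the 6 groups. CPT1A over CPT2 was 1.44, 2.68 and 2.16 in Kashmiri and 7.66, 7.01 and 12.9 in Jersey cattle, without overlap between the breeds. ACADVL over ACADM was 6.09, 7.87 and 5.27 in Kashmiri and 20.2, 14.5 and 14.7 in Jersey cattle, again without overlap. Both ratios were higher in every Jersey group than in every Kashmiri group.

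BDH1 over OXCT1 was 5.98, 0.563 and 1.19 in Kashmiri and 5.10, 0.0523 and 0.361 in Jersey cattle. At D15 the breeds were close, and in both the ratio was far lower at D90 and in between at D250. The Jersey D90 ratios of BDH1 rest on its 0.448 FPKM there. ACAT1 over OXCT1 was 4.86, 1.71 and 1.31 in Kashmiri and 3.91, 0.855 and 0.990 in Jersey cattle. BDH1 over ACAT1 was 1.23 at D15 in Kashmiri and 1.30 in Jersey cattle, and 0.330 and 0.0612 at D90, so that BDH1 was lower at D90 relative to ACAT1 as well. PDK4 over PDK2, another kinase of pyruvate dehydrogenase, was 0.237, 0.165 and 0.777 in Kashmiri and 2.26, 6.21 and 2.70 in Jersey cattle.

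**Figure D4:**
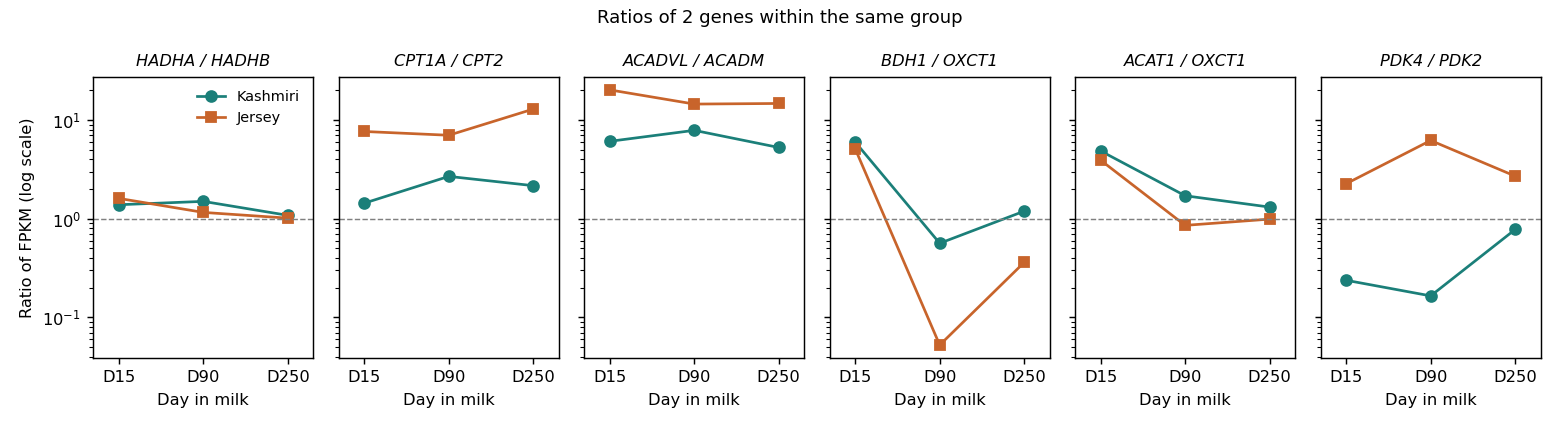
Ratio of the FPKM of 2 genes within the same group (y axis, log scale) against day in milk (x axis), with circles for Kashmiri and squares for Jersey cattle, a dashed line at 1 and no error. HADHA over HADHB stays between 1.01 and 1.61, whereas BDH1 over OXCT1 runs from 5.98 at D15 in Kashmiri to 0.0523 at D90 in Jersey cattle, where BDH1 was under 1 FPKM.

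Across the 6 groups, log2(FPKM + 1) of the 45 pairs among the 10 genes had a median Pearson correlation of 0.11, with 24 pairs positive and 21 negative. The groups share breeds and stages, and the correlations are given as a description over 6 points. Pairs above 0.8 were BDH1 and ACAT1 (0.94), HADHA and HADHB (0.93), CPT1A and ACADVL (0.87), ACADVL and PDK4 (0.86), and OXCT1 and ACADM (0.81). Pairs below -0.8 were CPT1A and ACAT1 (-0.92), HADHB and ACAT1 (-0.83), and BDH1 and HADHB (-0.81).

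Among 10682 other genes with a symbol and at least 1 FPKM in any group, those most like BDH1 over the 6 groups were CLDN7 (Pearson correlation 0.997), RTKN (0.993) and the entry that joins GJA9 and RHBDL2 (0.993). CLDN7, a claudin of epithelial tight junctions, had 87.9, 14.9 and 38.2 FPKM in Kashmiri and 41.1, 3.18 and 11.1 FPKM in Jersey cattle. The genes most like CPT1A were RIN3 (0.998), the entry that holds NAV1 (0.996) and SLC7A7 (0.993), an amino acid transporter subunit with 3.29, 18.3 and 20.01 FPKM in Kashmiri and 48.6, 71.0 and 99.5 FPKM in Jersey cattle. Those most like PDK4 were MGLL (0.979), the monoglyceride lipase, LRRFIP2 (0.979) and SEPN1 (0.977). With 6 points many genes come close, and 2.63% of the genes compared were above 0.95 with BDH1, 1.52% with CPT1A and 0.215% with PDK4.

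Other genes of beta-oxidation were for the most part less than 2-fold apart between the breeds at D15. Of 24 found of 25 listed, 22 were counted, of which 3 were higher and 2 lower in Jersey at D15, with a median log2 ratio of -0.28 against -0.13 for all genes counted, of which 15.9% were higher and 13% lower. From D15 to D90 in Kashmiri cattle 2 were higher and 6 lower, beside 14.7% and 18.8% of all genes, and from D15 to D250 in Jersey cattle 1 was higher and 7 lower, beside 24.5% and 17.9%. The median log2 ratios of the list in these comparisons were -0.39 and -0.20 as deposited, and -0.09 and -0.40 with the sum. The entry that joins ETFB, a subunit of the electron transfer flavoprotein, and VSIG10L had the highest level, with 378, 142 and 182 FPKM in Kashmiri and 350.0, 159 and 107 FPKM in Jersey cattle. ACADS, the short-chain dehydrogenase, had 27.4, 11.5 and 17.1 FPKM in Kashmiri and 27.4, 13.5 and 5.53 FPKM in Jersey cattle. ECI1, an enoyl-CoA isomerase, had 122, 31.4 and 46.2 FPKM in Kashmiri and 78.7, 54.0 and 30.6 FPKM in Jersey cattle. Both were highest at D15, except that ACADS was highest at D250 in Kashmiri with the sum. ACSL4, which activates long polyunsaturated fatty acids, had 7.16, 18.0 and 11.8 FPKM in Kashmiri and 17.2, 54.1 and 160.0 FPKM in Jersey cattle.

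The list of other ketone body genes was broader than its name and also held ACSS1, ACSS2 and monocarboxylate transporter genes. Of 14 genes listed, 13 were found and 10 counted, of which 6 were lower and 2 higher at D90 in Kashmiri cattle (median log2 ratio -1.34). In Jersey cattle 4 were lower and 1 higher (median -0.75). ACSS1 (-1.25) and ACSS2 (-1.85) were among the lower genes in Kashmiri cattle. Among all genes 18.8% were lower and 14.7% higher in Kashmiri and 16.9% and 12.8% in Jersey cattle, a balance that turned with the sum, under which the list's medians were -1.03 and -0.50. ACSS2, which makes acetyl-CoA from acetate, had 382, 105 and 376 FPKM in Kashmiri and 113, 16.5 and 97.2 FPKM in Jersey cattle, with D90 lowest in both breeds as for BDH1. The monocarboxylate transporter genes SLC16A3 and SLC16A6 were higher in Jersey at each stage, with 108, 194 and 329 FPKM for SLC16A3 against 5.29, 14.2 and 14.9 FPKM in Kashmiri cattle, and 10.2, 11.2 and 39.4 FPKM for SLC16A6 against 1.63, 2.10008 and 1.52 FPKM. SLC16A3 exports lactate from glycolytic cells and is known from leukocytes. Neutrophil and macrophage markers were higher in Jersey at each stage in sum, T and NK cell markers were lower, and their part in the result was not tested.

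Regulators of the pathway gave 3 genes higher and 5 lower of 10 counted from D15 to D90 in Kashmiri cattle, and 1 higher and 2 lower of 10 in Jersey cattle. The shares over all genes were 14.7% and 18.8% in Kashmiri, and 12.8% and 16.9% in Jersey cattle. The median log2 ratio of the list was -0.71 in Kashmiri and -0.06 in Jersey cattle as deposited, and -0.42 and 0.17 with the sum. ACACA, which makes the malonyl-CoA that inhibits CPT1, had 128, 11.5 and 54.2 FPKM in Kashmiri and 29.3, 2.22 and 13.0 FPKM in Jersey cattle, with the same order of stages as BDH1. PPARD, a nuclear receptor that binds fatty acids, had 13.3, 11.5 and 17.0 FPKM in Kashmiri and 31.9, 39.1 and 172 FPKM in Jersey cattle. RXRA, the partner of the PPAR receptors, had 33.7, 8.44 and 20.2 FPKM in Kashmiri and 56.6, 64.3 and 117 FPKM in Jersey cattle. Both were higher in Jersey than in Kashmiri at each stage, as was CPT1A. PRKAA1, a catalytic subunit of AMP-activated kinase, had 1.24, 4.96 and 3.79 FPKM in Kashmiri and 1.84, 6.83 and 21.6 FPKM in Jersey cattle.

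The pyruvate dehydrogenase list held genes of the complex, of its regulators and of the pyruvate carrier. For Jersey over Kashmiri at D15 its median log2 ratio was -0.80 over 12 genes, against -0.13 for all genes. With the sum it was -0.45, against 0.24. Of the 12 genes 1 was higher, PDK3 (1.06), and 3 lower, MPC2 (-1.72), MPC1 (-1.20) and PDHA1 (-1.05), beside 15.9% and 13% of all genes. PDK2 had 9.66, 17.9 and 12.2 FPKM in Kashmiri and 4.75, 2.53 and 3.55 FPKM in Jersey cattle, and was higher in every Kashmiri than in every Jersey group. MPC1 and MPC2, which form the mitochondrial pyruvate carrier, were lower at D90 than at D15, with 446, 101 and 188 FPKM for MPC1 in Kashmiri and 194, 79.8 and 112 FPKM in Jersey cattle, and 265, 73.5 and 191 FPKM for MPC2 in Kashmiri and 80.0, 28.8 and 56.2 FPKM in Jersey cattle.

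As deposited, of 16 citric acid cycle genes counted, no more than 2 were higher and no more than 2 lower in any comparison. The shares of all genes higher ran from 8.95% to 24.5% and lower from 4.22% to 18.8%. The median log2 ratio of the list lay between -0.34 and 0.22 as deposited and between -1.11 and 0.85 with the sum. The -1.11 was for Jersey over Kashmiri at D250, where the median of the list was itself past 2-fold and 37.7% of all genes were lower. The small counts therefore hold as deposited only. IDH3A had 1.75, 5.94 and 5.93 FPKM in Kashmiri and 4.59, 7.78 and 7.34 FPKM in Jersey cattle, and IDH2 28.4, 73.4 and 25.7 FPKM in Kashmiri and 43.7, 29.9 and 17.8 FPKM in Jersey cattle. IDH3G was lower in Jersey at each stage, with 32.7, 26.2 and 31.4 FPKM against 81.1, 76.7 and 64.9 FPKM. SDHB, a subunit of succinate dehydrogenase, had the highest mean level of the list, with 275, 154 and 157 FPKM in Kashmiri and 274, 220.0 and 144 FPKM in Jersey cattle.

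Peroxisomal oxidation genes were lower at D90 than at D15 for 4 of 11 counted in Kashmiri and 3 of 10 counted in Jersey cattle, with 0 higher in either breed, beside 18.8% and 16.9% of all genes lower and 14.7% and 12.8% higher. With the sum the balance of all genes turned, to 13.4% and 12.7% lower and 20.8% and 18% higher. The median log2 ratio of the list was -0.45 in Kashmiri and -0.33 in Jersey cattle as deposited, and -0.13 and -0.10 with the sum. EHHADH, the peroxisomal bifunctional enzyme, had 11.9, 2.63 and 12.2 FPKM in Kashmiri and 3.51, 0.366 and 5.55 FPKM in Jersey cattle, and SCP2, a thiolase and lipid carrier, had 78.2, 20.9 and 49.3 FPKM in Kashmiri and 29.6, 17.3 and 33.0 FPKM in Jersey cattle. In both genes D90 was the lowest stage of each breed, as in BDH1. ACAA1, the peroxisomal thiolase, had 110.4, 80.8 and 67.2 FPKM in Kashmiri and 136, 114 and 209 FPKM in Jersey cattle. ACOT8, a peroxisomal thioesterase, had 23.2, 10.98 and 11.3 FPKM in Kashmiri and 32.4, 8.11 and 5.26 FPKM in Jersey cattle.

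**Figure D5:**
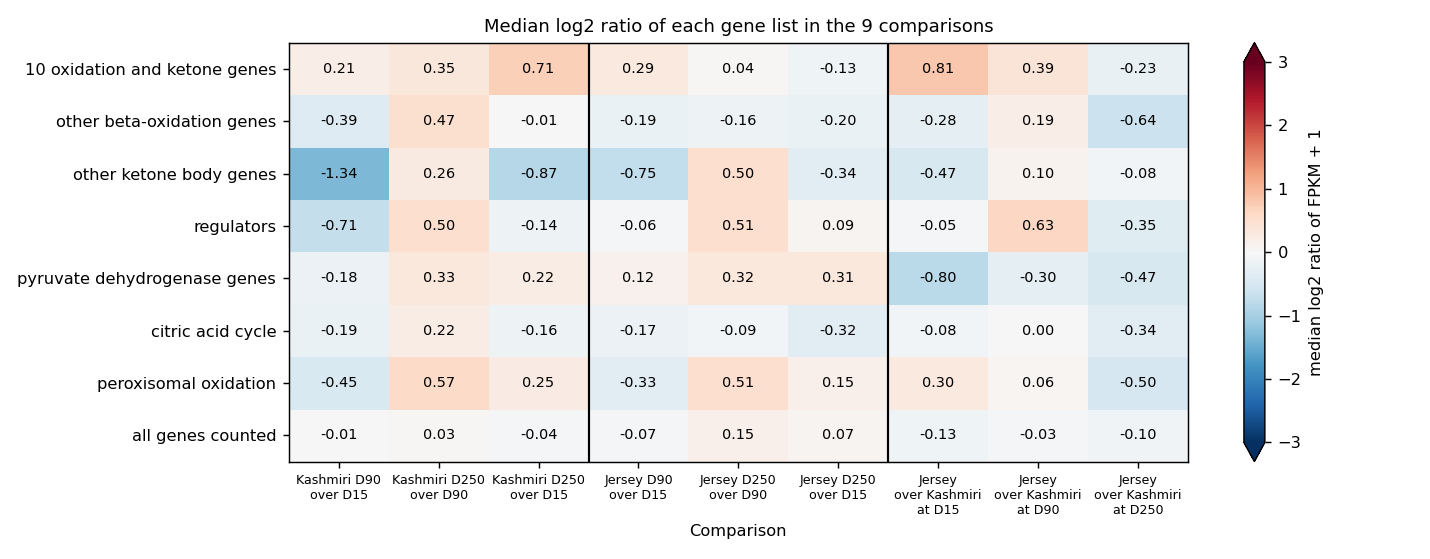
Median log2 ratio of FPKM + 1 of the 10 genes, of 6 lists of related genes and of all genes counted (rows) in the 9 comparisons (columns), with red for higher and blue for lower in the group named first. The lowest value is -1.34 for the other ketone body genes, a list that also holds acetate and transporter genes, from D15 to D90 in Kashmiri cattle. The highest is 0.81 for the 10 genes between breeds at D15.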

How the data were processed

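Poly-A RNA of cells captured from milk was sequenced in 6 groups of breed and stage. By the methods of the paper, the authors removed adapters and low-quality reads (Trimmomatic), mapped what was left to UMD3.1 (Bowtie2, TopHat) and had Cufflinks and Cuffdiff give gene levels; versions of the latter pair are not given in the sources used here. The deposited values are FPKM, 1 per gene and group, and the columns named Local were taken as Kashmiri. Of 61264 entries, 25121 had a gene name. Where a name recurred, its entry of highest mean was taken, and joined names were looked up by each part. Log2 ratios used a pseudocount of 1 FPKM, which understates the change of low genes, and counts used a limit of 1 on the log2 ratio and at least 1 FPKM in either group. With 1 value per group there were no replicates, no read depth and no p-value, and precision is unknown.

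The 10 genes and all lists were chosen with earlier results of these data known, and the pairs for within-group ratios after their values were seen. Named besides the 10 genes were the 3 genes per list with the largest log2 ratio, that with the highest mean FPKM, and the 3 genes most correlated with BDH1, CPT1A and PDK4. The values of 1 gene of the ketone body list are not reported here. Alternatives were a pseudocount of 0.1 FPKM, no filter, scaling to the total of all entries apart from 6 milk protein genes or to the upper quartile of each group, centring on the median of all genes, summed entries and a limit of 2. Orders of levels and breed differences under the scalings were added after the data were seen. The code was tested on simulated data. The work used pandas 2.3.3 and numpy 2.4.6 under Python 3.11.15, with matplotlib 3.10.9 for plots. Gene order came from a RefSeq table of a Bos indicus assembly, from which no coordinates were taken.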

Additional observations from a re-analysis of the deposited data

How the results depend on the processing

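With a pseudocount of 0.1 FPKM, the number of the 10 genes past 2-fold and their median log2 ratio stayed within a factor of 1.5 in all 9 comparisons. Leaving out the filter or summing entries could not move a value, since all 10 genes passed the filter and had 1 entry each. With scaling to the total of all entries apart from the milk proteins (the sum), 4 genes in place of 2 were past 2-fold from D90 to D250 in Kashmiri cattle, with a median of 0.98, and 8 in place of 3 from D15 to D250, with a median of 1.56. With the upper quartile the latter count was 6. The median from D90 to D250 in Jersey cattle, 0.04 as deposited, became -0.42 with the sum, -0.21 with the upper quartile and -0.11 with centring on all genes. The median for Jersey over Kashmiri at D250 became -0.94 with the sum. With a limit of 2 on the log2 ratio, 1 gene was past it from D15 to D90 in each breed, 1 from D15 to D250 in Jersey cattle and 1 between breeds at D15. At that limit there were 2 between breeds at D90 and 2 at D250, and 0 in the other 3 comparisons. Rescaling to the sum moved 36 of the 90 ratios by a factor of 1.5 or more or changed their sign, the upper quartile 4, centring 4 and the smaller pseudocount 3, and no ratio past 2-fold changed its sign. Genes with opposite signs in the breeds numbered 2 from D15 to D90 and 1 with the sum, and 3 from D90 to D250, 7 with the sum, 6 with the upper quartile and 5 with centring, a comparison added after the data were seen. The cause of these shifts was not tested. No paired analysis was possible because the values are 1 per group and carry no replicate number, and for the same reason no replicate could be left out.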
